A study of Mus musculus with 24 samples.

Results

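The genes of the proteasome were followed in RNA-seq libraries from mouse renal cortex. They were taken by name, as every gene whose symbol begins with Psma to Psmg followed by a digit, without the pseudogene rows: 50 of the 48526 genes in the count table. Of these, 48 passed the filter on low counts, among 15808 genes tested. Psma8, a testis form of an alpha subunit, had 0 to 4 counts a library, and Psmb11, the beta subunit of the thymus, had 0 to 2. The 4 pseudogene rows left out had at most 1 count in a library.

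The 24 libraries came from C57BL/6 mice in 4 groups of 6. The diabetic PMX-53 and diabetic vehicle mice had received 55 mg/kg streptozotocin, a toxin of the insulin-producing beta cells, on 5 days from 6 weeks of age. The non-diabetic PMX-53 and non-diabetic vehicle mice had received sodium citrate. PMX-53, a peptide inhibitor of the complement receptor C5aR1, was given in the drinking water at 2 mg/kg, vehicle mice drank water alone, and all were followed for 24 weeks. No transgene or engineered allele is named in the labels. Diabetes was induced chemically, and the cortex was profiled whole, so fewer cells of a type and less RNA per cell cannot be told apart.

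The proteasome degrades proteins that carry ubiquitin. Its 20S core is a barrel of alpha rings, which gate the entrance, around beta rings, which hold the catalytic sites. The 19S cap recognises and unfolds substrates with a ring of ATPases and a set of non-ATPase subunits. Interferon-gamma induces the immunoproteasome, in which Psmb8, Psmb9 and Psmb10 take the catalytic places of Psmb5, Psmb6 and Psmb7, and whose peptides serve display on MHC class I. Activators such as PA28 (Psme1 with Psme2) bind the core in place of the 19S cap, and dedicated chaperones assemble the parts.

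Libraries held 10964992 to 22000895 counts, of which the 50 genes took 0.184% to 0.229%. The kidney label was checked on 9 markers of the proximal tubule, all 9 tested, whose summed level was 9387 to 17523 CPM (counts divided by the scaled size of the library, in the usual unit) over the 24 libraries. Mitochondrially encoded genes took 25.8% ± 2.56 of counts in diabetic PMX-53 libraries, 29.5% ± 2.14 in diabetic vehicle libraries, 22.9% ± 1.51 in non-diabetic PMX-53 libraries and 22.6% ± 1.65 in non-diabetic vehicle libraries (SD, n = 6 each). Most of this share was mitochondrial ribosomal RNA: with all ribosomal RNA genes removed it was 5.26% ± 0.856 of the remaining counts in diabetic PMX-53, 6.24% ± 0.418 in diabetic vehicle, 4.78% ± 0.549 in non-diabetic PMX-53 and 4.66% ± 0.565 in non-diabetic vehicle libraries. The diabetic vehicle libraries also stood apart at genes outside the family. Against non-diabetic vehicle libraries, 7.86% of all genes tested were higher and 7.02% lower without overlap. As an example, Nnt, a mitochondrial transhydrogenase, had levels of 241.7 to 271.8 CPM in the diabetic vehicle libraries, while the other 18 lay between 101 and 121 CPM. Any trait of the mice in that group cannot be told apart from diabetes or PMX-53 in the comparisons that use it.

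Summed over the family, the level averaged 1992 ± 85.9 CPM in diabetic PMX-53 libraries, 2090 ± 77.6 in diabetic vehicle libraries, 2058 ± 33.3 in non-diabetic PMX-53 libraries and 2060 ± 21.99 in non-diabetic vehicle libraries (SD, n = 6 each). The group ranges overlapped. Single members differed more than this sum.

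Levels can be compared between genes only per length. Per kb of annotated exon, the role medians in non-diabetic vehicle libraries were 24.8 CPM for the 19S ATPases, 18.6 for the constitutive beta ring, 15.8 for the 19S non-ATPases, 14.9 for the alpha ring and 11.6 for the activators and the inhibitor. The assembly chaperones had a median of 4.59 CPM per kb and the immunoproteasome subunits 1.41. The structural roles lay close together, and their order depended on the length used. Over the longest coding transcript the medians were 31.9 for the 19S ATPases, 40.0 for the beta ring, 24.6 for the 19S non-ATPases and 36.6 for the alpha ring. The chaperones (7.55) and the immunoproteasome (2.94) remained the lowest of these roles by either length. The highest single member per kb of exon was Psmb4, a structural beta subunit, at 38.4 ± 1.49 CPM per kb (SD, n = 6).

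**Figure D1:**
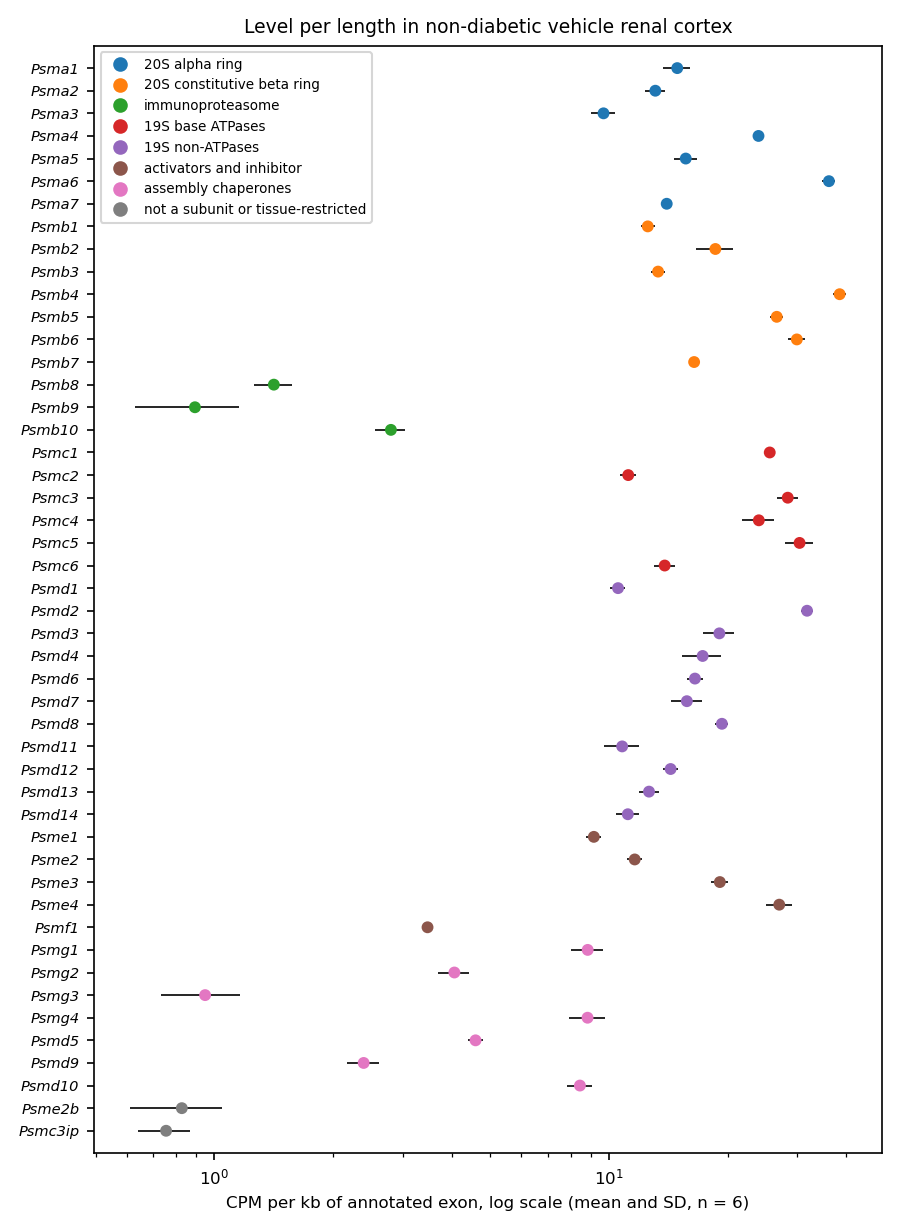
Level per kb of annotated exon (log axis, CPM per kb) of the 48 genes tested, in the 6 non-diabetic vehicle libraries. Points are means, bars SD and colours roles. The immunoproteasome subunits lie at 0.893 to 2.80, and Psmb4 is highest at 38.4.

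Diabetic vehicle mice were compared with non-diabetic vehicle mice to ask what diabetes does to the cortex. Psmd9, an assembly chaperone of the 19S base, rose most, followed by the PA28 subunit Psme1 and the 19S lid subunit Psmd8. Of the 48 genes, 7 rose and 3 fell by edgeR's quasi-likelihood test at a Benjamini-Hochberg adjusted p under 0.05, and the median log2 difference was 0.01, beside -0.0014 for all genes. Over all genes tested, 40.3% passed in either direction, 20.4% upward and 19.9% downward, so the members' share of 20.8% was below the background. The median size of the log2 difference was 0.09 for the members and 0.21 for all genes.

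In diabetic mice, PMX-53 was compared with vehicle to ask what blocking C5aR1 does in the diabetic cortex. Here 13 members fell and 1 rose. The 20S core held 8 of the 13, and all 14 of its tested alpha and constitutive beta genes had a negative log2 difference, with a median of -0.15 against -0.05 for the 48 members and 0.00 for all genes. Over all genes, 27.3% passed, 13.9% upward and 13.5% downward, beside 29.2% of the members. Both comparisons use the diabetic vehicle libraries, so their values are not independent of each other.

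Counts of calls in both comparisons moved with the scaling. With library totals in place of the trimmed mean of M-values, diabetes on vehicle gave 3 members that rose and 5 that fell, and PMX-53 in diabetic mice gave 6 that rose and 3 that fell. No core gene then passed in either comparison (0 of 14). Outside the core, the calls of Psmc3 for diabetes on vehicle (edgeR adjusted p = 0.136) and for PMX-53 in diabetic mice (0.549) and of Psme2 for PMX-53 in diabetic mice (0.584) were lost, as was that of Psmb7 between diabetic and non-diabetic mice under PMX-53 (0.340). With no filter on low counts, the calls of Psma3, Psma4, Psma6, Psmb6, Psmb7, Psme2 and Psmg1 for PMX-53 in diabetic mice, of Psmb6 and Psmd14 for diabetes on vehicle, of Psmb7 and Psmg4 under PMX-53 and of Psma7 and Psmb3 for the interaction were lost. With only the groups compared, those of Psma3, Psma4, Psma6, Psmb6, Psmb7 and Psme2 for PMX-53 in diabetic mice and of Psmb3, Psmb6 and Psmd14 for diabetes on vehicle were lost. Scaling by library totals moved the median of all genes by 0.12 with PMX-53 in diabetic mice and by -0.09 with diabetes on vehicle. Of all calls, 79.5% and 31.2% were then upward, against 50.7% in each under the main scaling. The core median was then -0.03 with PMX-53 in diabetic mice, with 10 of 14 genes negative and the all-gene median at 0.12.

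PMX-53 in non-diabetic mice changed 0 of 48 members by edgeR, where 0.00% of all genes passed. No member had an unadjusted p under 0.05, although 1142 of all genes did, and DESeq2 called 0 members and 4 genes in all. Between diabetic and non-diabetic mice under PMX-53, 2 members fell and 1 rose, where 10.0% of all genes passed, 5.52% upward and 4.52% downward. All 14 core genes had a negative log2 difference there, with a median of -0.09. The difference between the PMX-53 effects in diabetic and non-diabetic mice, tested as an interaction, passed for 5 members, 0 of them positive, beside 9.42% of all genes, 4.66% positive and 4.76% negative. These were Psmd9, Psme1, Psmd8, Psma7 and Psmb3. With library totals 0 interactions passed, with an adjusted p of 0.0693 for Psmd8.

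**Figure D2:**
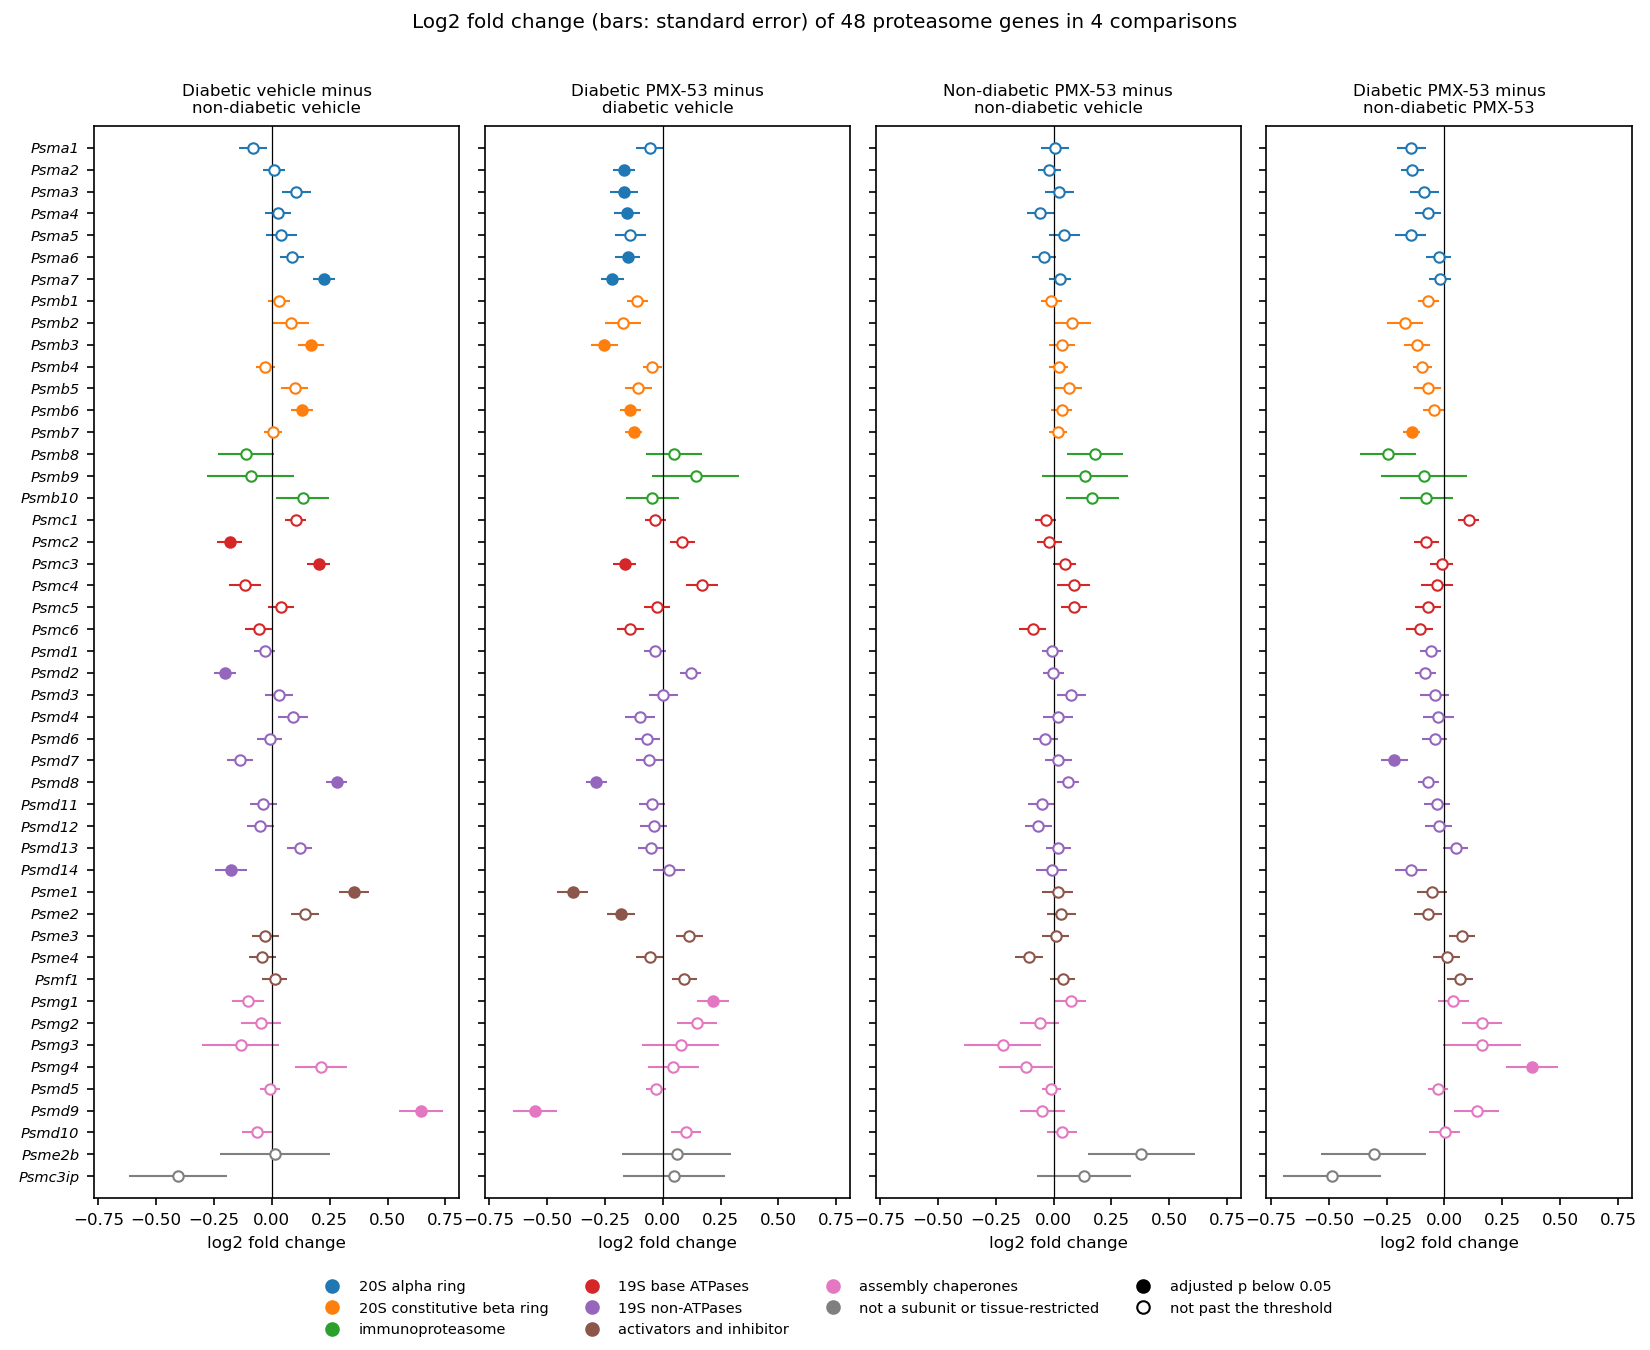
Log2 fold change (x axis) of the 48 genes tested in 4 comparisons, with standard errors as bars and filled points for adjusted p below 0.05. The 14 core genes lie left of 0 in the comparison of PMX-53 with vehicle in diabetic mice, and Psmd9 stands farthest out at 0.64 with diabetes on vehicle.

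Among the alpha ring genes, Psma7 was the 1 of 7 that rose with diabetes on vehicle, or 14.3% beside 20.4% of all genes. Psma7 spanned 40.3 to 45.8 CPM (median 43.4) in diabetic PMX-53 libraries, 43.7 to 55.3 (median 50.7) in diabetic vehicle libraries, 42.0 to 45.7 (median 43.3) in non-diabetic PMX-53 libraries and 41.4 to 44.9 (median 42.5) in non-diabetic vehicle libraries. Of the 4 groups the diabetic vehicle one was highest, with its lowest library inside the range of the others. The log2 difference was 0.23 ± 0.05 (SE, edgeR adjusted p = 0.000467) for diabetes on vehicle and -0.22 ± 0.05 (edgeR adjusted p = 0.00129) for PMX-53 in diabetic mice.

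With PMX-53 in diabetic mice 5 of the 7 alpha genes fell, or 71.4% beside 13.5% of all genes. With library totals none of the alpha genes passed in that comparison. Psma2 spanned 37.6 to 46.2 CPM (median 44.6) in diabetic PMX-53 libraries and 46.9 to 50.2 (median 48.3) in diabetic vehicle libraries, without overlap (log2 difference -0.17 ± 0.05, edgeR adjusted p = 0.0127). Psma3, Psma4 and Psma6 fell by 0.17, 0.15 and 0.15 on the log2 scale, with overlapping groups and edgeR adjusted p-values of 0.0450, 0.0444 and 0.0313. The calls of Psma3 and Psma4 were lost in 14 and 13 of the 24 fits that left out 1 library, for example without diabetic PMX-53 replicate 1 (edgeR adjusted p = 0.119 and 0.0646). That of Psma6 was lost without diabetic PMX-53 replicate 1 or 6 or diabetic vehicle replicate 1 or 2.

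In the constitutive beta ring 2 of 7 genes rose with diabetes on vehicle, or 28.6% beside 20.4% of all genes. With PMX-53 in diabetic mice 3 of 7 fell, or 42.9% beside 13.5%. With library totals none of these genes passed in either comparison. Psmb3, a structural subunit, spanned 26.7 to 31.1 CPM (median 29.2) in diabetic PMX-53 libraries, 31.0 to 38.8 (median 33.7) in diabetic vehicle libraries, 29.6 to 33.7 (median 31.4) in non-diabetic PMX-53 libraries and 29.6 to 32.7 (median 30.2) in non-diabetic vehicle libraries. The diabetic vehicle range touched each of the others. Psmb3 rose by 0.17 ± 0.06 with diabetes on vehicle (edgeR adjusted p = 0.0188, or 0.0644 without diabetic vehicle replicate 5) and fell by 0.25 ± 0.06 with PMX-53 in diabetic mice (edgeR adjusted p = 0.00172).

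The 3 constitutive catalytic subunits behaved unevenly. Psmb6, the caspase-like subunit, averaged 55.6 ± 2.79 CPM in diabetic PMX-53 libraries, 61.4 ± 3.82 in diabetic vehicle libraries, 57.4 ± 1.43 in non-diabetic PMX-53 libraries and 56.1 ± 2.90 in non-diabetic vehicle libraries (SD, n = 6 each). Its log2 difference was 0.13 ± 0.05 for diabetes on vehicle (edgeR adjusted p = 0.0262, or 0.0751 without diabetic vehicle replicate 5) and -0.14 ± 0.05 for PMX-53 in diabetic mice (edgeR adjusted p = 0.0251, or 0.0699 without that library). The first of these calls was also lost without diabetic vehicle replicate 3 or non-diabetic vehicle replicate 5 or 6, and the second without diabetic PMX-53 replicate 2, 5 or 6.

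Psmb7, the trypsin-like subunit, averaged 51.7 ± 2.53 CPM in diabetic PMX-53 libraries, below 56.4 ± 1.44 in diabetic vehicle, 57.0 ± 0.692 in non-diabetic PMX-53 and 56.3 ± 1.46 in non-diabetic vehicle libraries (SD, n = 6 each). The 6 diabetic PMX-53 libraries (48.6 to 55.9) lay below all 6 non-diabetic PMX-53 libraries (56.3 to 58.0), where 3.03% of all genes were lower and 2.97% higher without overlap. Psmb7 fell by 0.14 ± 0.04 between diabetic and non-diabetic mice under PMX-53 (edgeR adjusted p = 0.0153) and by 0.13 ± 0.04 with PMX-53 in diabetic mice (edgeR adjusted p = 0.0134). Its annotated exons share 405 bases with Nek6 on the other strand, and the strand setting of the counts is not known. Psmb5, the chymotrypsin-like subunit, did not pass, with log2 differences of 0.10 ± 0.06 for diabetes on vehicle and -0.11 ± 0.06 for PMX-53 in diabetic mice (edgeR adjusted p = 0.184 for both).

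The immunoproteasome subunits were low in all groups and passed in 0 of the 5 comparisons. Psmb8 averaged 4.59 ± 0.877 CPM in diabetic PMX-53 libraries, 4.41 ± 0.387 in diabetic vehicle, 5.41 ± 0.857 in non-diabetic PMX-53 and 4.78 ± 0.525 in non-diabetic vehicle libraries. Psmb9 averaged 3.37 ± 0.954 CPM in diabetic PMX-53, 3.03 ± 0.665 in diabetic vehicle, 3.57 ± 0.520 in non-diabetic PMX-53 and 3.27 ± 0.967 in non-diabetic vehicle libraries. Psmb10 averaged 5.10 ± 0.578 CPM in diabetic PMX-53, 5.25 ± 0.916 in diabetic vehicle, 5.38 ± 0.704 in non-diabetic PMX-53 and 4.78 ± 0.4218 in non-diabetic vehicle libraries (SD, n = 6 each for all 3 genes). The standard errors of the log2 difference for diabetes on vehicle were 0.12, 0.19 and 0.11 for Psmb8, Psmb9 and Psmb10, against 0.06, 0.05 and 0.04 for Psmb5, Psmb6 and Psmb7.

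A ratio within a library does not depend on scaling, but a ratio of counts does depend on the lengths of the genes. Psmb8 has 3381 bases of annotated exon and Psmb5 899, Psmb9 3660 and Psmb6 1872, and Psmb10 1705 and Psmb7 3421. The percentages are of counts without regard to length, so they compare groups and not the levels of the genes or the pairs. The count of Psmb8 was a median of 18.5% of that of Psmb5 over the 6 libraries of a group in diabetic PMX-53, 17.5% in diabetic vehicle, 21.6% in non-diabetic PMX-53 and 20.3% in non-diabetic vehicle libraries. For Psmb9 over Psmb6 the median of the ratios was 5.59% in diabetic PMX-53, 4.92% in diabetic vehicle, 6.26% in non-diabetic PMX-53 and 5.84% in non-diabetic vehicle libraries. For Psmb10 over Psmb7 it was 10.02% in diabetic PMX-53, 8.99% in diabetic vehicle, 9.95% in non-diabetic PMX-53 and 8.72% in non-diabetic vehicle libraries. Over 3 ratios and 4 pairwise comparisons, 12 exact two-sided permutation tests gave adjusted p-values of 0.600 to 0.712. The smallest unadjusted exact p was 0.0693, for Psmb8 over Psmb5 in diabetic vehicle against non-diabetic vehicle mice, with mean log2 ratios of -2.53 ± 0.20 and -2.32 ± 0.18 (SD, n = 6 each). The smallest p that 6 against 6 allows is 0.00216.

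**Figure D3:**
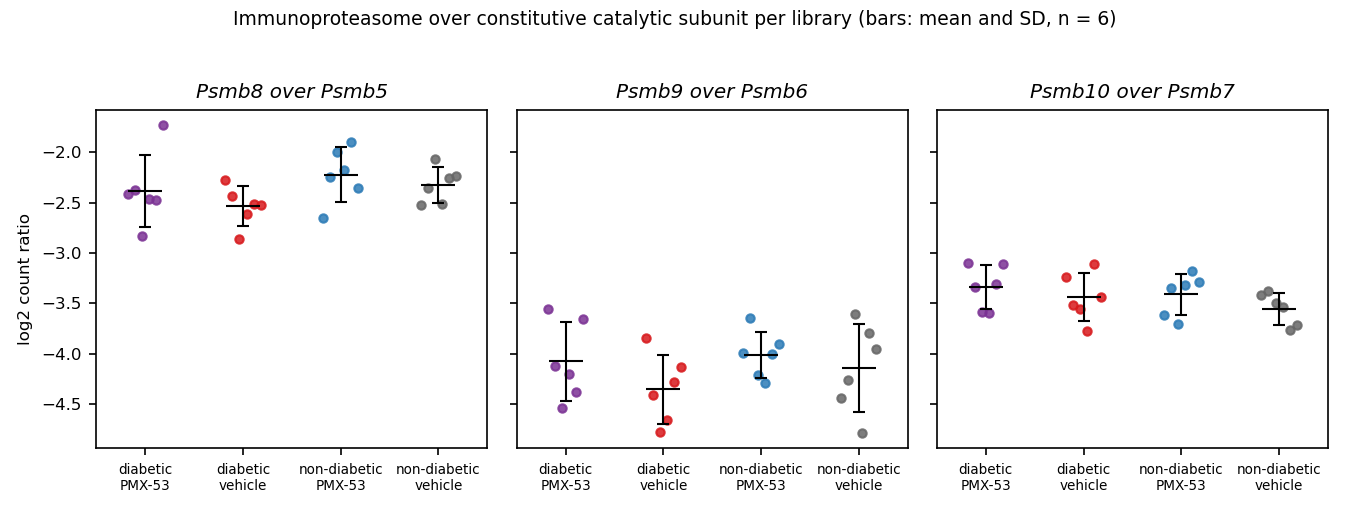
Log2 ratio of the counts of each immunoproteasome subunit to its constitutive counterpart (y axis) in each library, with group mean and SD (bars, n = 6). The groups overlap in all 3 ratios, with Psmb8 over Psmb5 at a mean of -2.53 in diabetic vehicle and -2.32 in non-diabetic vehicle libraries.

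Of 16 genes of MHC class I display and interferon response, diabetes on vehicle raised 5 and lowered 1, with a median of 0.10 beside -0.0014 for all genes. These calls made 37.5% of the list, beside 40.3% of all genes tested. B2m, the light chain of MHC class I, was at 78.9 ± 6.79 CPM in diabetic PMX-53, 135.5 ± 29.7 in diabetic vehicle, 77.6 ± 6.08 in non-diabetic PMX-53 and 79.4 ± 3.63 in non-diabetic vehicle libraries (SD, n = 6 each). Of 11 tested immune cell markers of 18 listed, 4 fell and 0 rose with diabetes on vehicle, or 36.4% beside 40.3% of all genes. Among those that fell was the leukocyte gene Ptprc at -0.88 ± 0.12 (edgeR adjusted p = 2.31e-06). The summed level of the 18 markers was 151.8 to 199 CPM in diabetic PMX-53, 125.6 to 165.3 in diabetic vehicle, 167.2 to 220.0 in non-diabetic PMX-53 and 164.9 to 215 in non-diabetic vehicle libraries, and none of the 18 was at 0 in all libraries. Their part in the immunoproteasome levels was not tested.

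After removal of group means, the log2 levels of Psmb9 correlated with those of the peptide transporter gene Tap1 (Pearson r = 0.68) over the 24 libraries, as a description. Libraries share scaling and depth, and Psmb9 and Tap1 also share 212 bases of exon on opposite strands. The median r was 0.39 among the alpha genes and -0.15 between the 20S core and the immunoproteasome.

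Of the 6 ATPases of the 19S base, 1 rose and 1 fell with diabetes on vehicle. These were 33.3%, beside 40.3% of all genes, 20.4% upward and 19.9% downward. Psmc3 rose with diabetes on vehicle by 0.20 ± 0.05 (edgeR adjusted p = 0.00179), at 82.2 to 91.6 CPM (median 83.8) in diabetic vehicle and 65.3 to 78.3 (median 75.2) in non-diabetic vehicle libraries, without overlap. It fell by 0.17 ± 0.05 with PMX-53 in diabetic mice (edgeR adjusted p = 0.0132), with diabetic PMX-53 libraries at 70.2 to 83.8 CPM (median 75.1). Psmc3 shares 215 bases of exon with Slc39a13 on the other strand, which also rose with diabetes on vehicle, by 0.14 ± 0.05 (edgeR adjusted p = 0.0388). Psmc2 fell with diabetes on vehicle by 0.18 ± 0.05 (edgeR adjusted p = 0.00838), averaging 49.7 ± 4.62 CPM in diabetic vehicle and 56.3 ± 2.65 in non-diabetic vehicle libraries (SD, n = 6 each). The calls in this ring were of opposite sign, at a share below that of all genes. With library totals the rise of Psmc3 did not pass (edgeR adjusted p = 0.136).

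Of the 11 non-ATPase subunits of the cap, 1 was higher and 2 lower for diabetes on vehicle, or 27.3% beside 40.3% of all genes. Psmd8 spanned 56.3 to 64.8 CPM (median 56.6) in diabetic PMX-53, 65.1 to 76.7 (median 72.2) in diabetic vehicle, 58.8 to 63.5 (median 62.0) in non-diabetic PMX-53 and 57.2 to 62.5 (median 58.3) in non-diabetic vehicle libraries. In CPM under the main scaling, the diabetic vehicle libraries lay above all other 18. By library totals they overlapped. Psmd8 had 1021 of 16441087 counts in diabetic vehicle replicate 4 and 1082 of 15410646 in non-diabetic PMX-53 replicate 6. Psmd8 was higher by 0.28 ± 0.05 for diabetes on vehicle (edgeR adjusted p = 2.40e-05). It was lower by 0.29 ± 0.05 for PMX-53 in diabetic mice (edgeR adjusted p = 4.78e-05) and its interaction was -0.35 ± 0.06 (edgeR adjusted p = 0.00133).

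Psmd2, a scaffold of the 19S base and the most abundant cap subunit per kb of exon, fell with diabetes on vehicle. It averaged 111.5 ± 8.33 CPM in diabetic vehicle and 128.4 ± 4.76 in non-diabetic vehicle libraries (SD, n = 6 each), a log2 difference of -0.20 ± 0.05 (edgeR adjusted p = 0.000981). Psmd14, the deubiquitinase of the lid, fell by 0.18 ± 0.07 (edgeR adjusted p = 0.0383), a call lost without diabetic vehicle replicate 6 (edgeR adjusted p = 0.113) and in 8 of the 24 fits in all. Psmd7, its partner in the lid, fell by 0.22 ± 0.06 between diabetic and non-diabetic mice under PMX-53 (edgeR adjusted p = 0.0165).

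Of the activators, Psme1 stood out. Psme1 spanned 17.8 to 22.1 CPM (median 20.01) in diabetic PMX-53, 22.5 to 30.7 (median 25.8) in diabetic vehicle, 19.05 to 22.04 (median 20.4) in non-diabetic PMX-53 and 19.3 to 21.6 (median 19.8) in non-diabetic vehicle libraries. In CPM under the main scaling, the 6 diabetic vehicle libraries lay above the other 18. By library totals they overlapped. Psme1 had 354 of 18060654 counts in diabetic vehicle replicate 3 and 357 of 16653251 in diabetic PMX-53 replicate 1. The log2 differences were 0.35 ± 0.07 for diabetes on vehicle (edgeR adjusted p = 0.000100) and -0.39 ± 0.07 for PMX-53 in diabetic mice (edgeR adjusted p = 8.17e-05), and the interaction was -0.41 ± 0.09 (edgeR adjusted p = 0.00669).

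Its partner Psme2 averaged 19.98 ± 1.19 CPM in diabetic PMX-53, 22.7 ± 2.17 in diabetic vehicle, 21.0 ± 1.18 in non-diabetic PMX-53 and 20.5 ± 0.951 in non-diabetic vehicle libraries (SD, n = 6 each). It fell with PMX-53 in diabetic mice by 0.18 ± 0.06 (edgeR adjusted p = 0.0259, or 0.0740 without diabetic vehicle replicate 1, and lost also without replicate 5 of that group or diabetic PMX-53 replicate 2 or 5) and did not pass for diabetes on vehicle (0.14 ± 0.06, edgeR adjusted p = 0.0599). The nuclear activator gene Psme3 (-0.03 ± 0.06), the large activator gene Psme4 (-0.04 ± 0.06) and the inhibitor gene Psmf1 (0.01 ± 0.05) did not pass for diabetes on vehicle, nor for PMX-53 in diabetic mice (0.12 ± 0.06, -0.06 ± 0.06 and 0.09 ± 0.05). Psme4 averaged 211.8 ± 14.7 CPM in diabetic PMX-53 and 220.1 ± 17.9 in diabetic vehicle libraries (SD, n = 6 each).

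Among the 7 assembly chaperones, Psmd9 had the largest difference of the 48 members for diabetes on vehicle. Psmd9 spanned 15.8 to 19.8 CPM (median 18.7) in diabetic PMX-53, 21.5 to 34.4 (median 26.7) in diabetic vehicle, 15.3 to 18.9 (median 16.5) in non-diabetic PMX-53 and 14.9 to 19.6 (median 17.4) in non-diabetic vehicle libraries. In CPM under the main scaling, the 6 diabetic vehicle libraries were again above all others and spread most, with an SD of 5.23 CPM. By library totals, diabetic vehicle replicate 3 (366 of 18060654 counts) lay below diabetic PMX-53 replicate 4 (333 of 16231690). Psmd9 was higher by 0.64 ± 0.09 for diabetes on vehicle (edgeR adjusted p = 5.36e-06). Under PMX-53 in diabetic mice it fell by 0.55 ± 0.09 (edgeR adjusted p = 9.48e-05) and had an interaction of -0.50 ± 0.13 (edgeR adjusted p = 0.0187). Its exons share 1849 bases with Gm26745 on the other strand, which had 0 to 2 counts a library.

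Psmg1, which pairs with Psmg2 in building the alpha ring, was the 1 member that rose with PMX-53 in diabetic mice, by 0.22 ± 0.07 (edgeR adjusted p = 0.0197, or 0.0618 without diabetic vehicle replicate 2). It averaged 12.8 ± 0.628 CPM in diabetic PMX-53 and 11.1 ± 0.927 in diabetic vehicle libraries (SD, n = 6 each). Psmg4, a partner of Psmg3, was higher by 0.38 ± 0.11 in diabetic than in non-diabetic mice under PMX-53 (edgeR adjusted p = 0.0319, or 0.0869 without diabetic PMX-53 replicate 4, 1 of 7 libraries whose omission lost the call), at 5.84 ± 0.774 CPM in diabetic PMX-53 and 4.51 ± 0.587 in non-diabetic PMX-53 libraries. With PMX-53 in diabetic mice the 7 chaperones had 1 call in each direction, or 28.6% beside 27.3% of all genes.

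Counted by overlap of libraries, 5 members were higher in diabetic vehicle than in non-diabetic vehicle mice without overlap (Psmc1, Psmc3, Psmd8, Psme1 and Psmd9) and 0 were lower, beside 7.86% and 7.02% of all genes. Psmc1, an ATPase, did not pass the test (0.10 ± 0.04, edgeR adjusted p = 0.0654). In diabetic mice, 4 members were lower on PMX-53 than on vehicle without overlap (Psma2, Psmd8, Psme1 and Psmd9) and 0 higher, beside 4.29% and 3.92% of all genes. All overlaps given here are of CPM under the main scaling, and some separations are lost with library totals. Psme1 had 354 of 18060654 counts in diabetic vehicle replicate 3 and 356 of 17810087 in non-diabetic vehicle replicate 2.

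**Figure D4:**
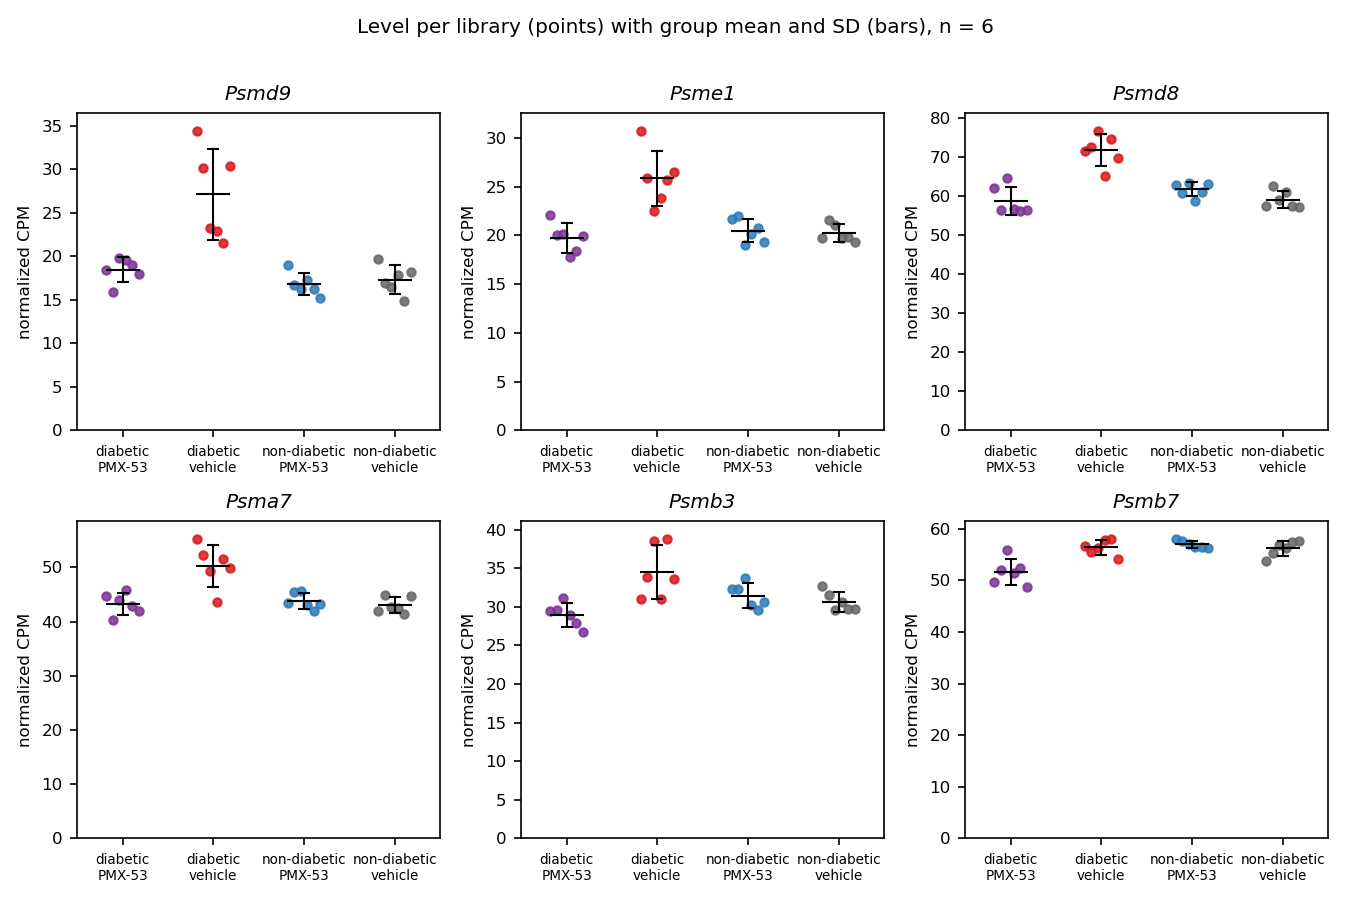
Normalized CPM (y axis, from 0) of 6 genes in each library, with group mean and SD (bars, n = 6). Under this scaling, the 6 diabetic vehicle libraries lie above the other 18 for Psmd9, Psme1 and Psmd8, though not by library totals. For Psmb7 the diabetic PMX-53 libraries average lowest, at 51.7.

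The promoters of the 5 members with an interaction are shown to set these genes side by side, as 250 bases before to 50 after the RefSeq start, on GRCm38.p6. Capitals mark matches, on either strand, to TGACNNNGC, the core of the antioxidant response element that NFE2L1 and NFE2L2 bind, or to the interferon-stimulated response element, searched as a pair of GAAA runs set apart by NN. They lie at chr5:123227940-123228239 on the plus strand, chr14:55578244-55578543 on the plus strand, chr7:29180624-29180923 on the minus strand, chr2:180042415-180042714 on the minus strand and chr11:97703184-97703483 on the plus strand.
Psmd9: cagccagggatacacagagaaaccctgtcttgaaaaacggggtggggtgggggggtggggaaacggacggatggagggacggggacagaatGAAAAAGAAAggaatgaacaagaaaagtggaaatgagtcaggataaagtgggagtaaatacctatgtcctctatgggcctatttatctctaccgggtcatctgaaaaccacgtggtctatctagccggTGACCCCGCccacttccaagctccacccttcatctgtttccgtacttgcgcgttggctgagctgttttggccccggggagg
Psme1: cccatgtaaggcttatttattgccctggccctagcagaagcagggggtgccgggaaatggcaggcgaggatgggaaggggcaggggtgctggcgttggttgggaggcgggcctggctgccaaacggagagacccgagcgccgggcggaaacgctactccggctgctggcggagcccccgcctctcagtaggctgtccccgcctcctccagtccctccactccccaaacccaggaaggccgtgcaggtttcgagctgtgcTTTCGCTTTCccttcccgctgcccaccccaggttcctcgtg
Psmd8: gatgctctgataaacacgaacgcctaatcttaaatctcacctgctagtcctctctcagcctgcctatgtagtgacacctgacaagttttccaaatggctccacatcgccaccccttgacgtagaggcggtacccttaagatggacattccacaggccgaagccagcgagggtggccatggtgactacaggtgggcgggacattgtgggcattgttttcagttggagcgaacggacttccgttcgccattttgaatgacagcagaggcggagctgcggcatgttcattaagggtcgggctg
Psma7: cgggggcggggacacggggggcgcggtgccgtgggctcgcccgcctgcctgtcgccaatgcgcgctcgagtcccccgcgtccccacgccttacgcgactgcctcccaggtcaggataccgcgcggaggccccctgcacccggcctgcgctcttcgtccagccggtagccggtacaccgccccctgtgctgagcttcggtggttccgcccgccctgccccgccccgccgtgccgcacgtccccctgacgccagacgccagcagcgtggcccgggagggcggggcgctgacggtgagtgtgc
Psmb3: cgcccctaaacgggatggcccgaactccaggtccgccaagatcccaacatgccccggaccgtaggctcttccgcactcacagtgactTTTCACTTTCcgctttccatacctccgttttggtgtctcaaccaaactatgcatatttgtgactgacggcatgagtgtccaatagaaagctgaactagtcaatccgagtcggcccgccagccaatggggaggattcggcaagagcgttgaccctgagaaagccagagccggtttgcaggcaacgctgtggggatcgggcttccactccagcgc
The Psmd9 window holds both motifs, those of Psme1 and Psmb3 hold the interferon letters, and those of Psmd8 and Psma7 hold neither. In GENCODE M21 the Psmd9 gene starts at chr5:123169413, upstream of its window, so some transcripts counted as Psmd9 may start elsewhere. Of the 42 members with a RefSeq promoter, 11.9% held the interferon letters, beside 3.44% of 32851 promoters of all genes, and 14.3% held TGACNNNGC, beside 12.4%. The site of NRF1, a nuclear respiratory factor and not NFE2L1, was found in 16.7% of members and 4.60% of all promoters. CCAAT was found in 35.7% and 37.4%. Member promoters had a median GC content of 57.3%, beside 52.7% for all. A match is a description of letters and says nothing of binding.

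Nfe2l1, the factor that raises proteasome genes when the proteasome is inhibited, was at 157.6 ± 5.85 CPM in diabetic PMX-53, 187.7 ± 15.8 in diabetic vehicle, 136.1 ± 6.78 in non-diabetic PMX-53 and 130.3 ± 5.37 in non-diabetic vehicle libraries (SD, n = 6 each). Diabetes on vehicle raised it by 0.53 ± 0.05 (edgeR adjusted p = 1.53e-08), and it fell by 0.25 ± 0.05 with PMX-53 in diabetic mice (edgeR adjusted p = 0.000623). Of 10 genes of its axis, diabetes on vehicle raised 2 and lowered 3, or 50% beside 40.3% of all genes. The highest log2 difference in this list was 0.77, in a gene other than Nfe2l1. With PMX-53 in diabetic mice the lowest was -1.18. Ddi2, the protease that activates the NFE2L1 protein, fell with diabetes on vehicle by 0.32 ± 0.06 (edgeR adjusted p = 0.000250), and Mafg, a DNA-binding partner, by 0.34 ± 0.07 (edgeR adjusted p = 0.000249). Of 6 tested targets of NFE2L2, 0 rose and 3 fell with diabetes on vehicle, or 50% beside 40.3% of all genes.

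Other parts of the ubiquitin system were mixed for diabetes on vehicle, where 40.3% of all genes passed in either direction. Of 6 ubiquitin and ubiquitin-activating genes 1 rose (Rps27a, a ubiquitin fusion gene, 0.25 ± 0.05) and 1 fell (the activating enzyme gene Uba6, -0.41 ± 0.09), with edgeR adjusted p-values of 0.000611 and 0.000393. Of 18 tested partners of the proteasome 3 rose and 6 fell. Uchl5, a deubiquitinase of the 19S cap, rose by 0.35 ± 0.07 (edgeR adjusted p = 0.000479), and Vcp, the unfoldase that delivers substrates, fell by 0.21 ± 0.06 (edgeR adjusted p = 0.00493).

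Complexes of similar architecture gave the scale. Among the subunits of the COP9 signalosome, a relative of the 19S lid, diabetes on vehicle raised 4 of 9 and lowered 0, with a median of 0.09. Among those of the translation factor eIF3, 6 of 13 rose and 0 fell, with a median of 0.13. Of the 8 subunits of the CCT chaperonin, 0 rose and 3 fell, with a median of -0.10. The shares that passed were 44.4% for COP9, 46.2% for eIF3 and 37.5% for CCT, beside 40.3% of all genes. With PMX-53 in diabetic mice, 3 COP9 and 4 eIF3 genes fell and 0 rose, and 0 CCT genes passed either way. These were 33.3% of COP9 and 30.8% of eIF3 genes, beside 27.3% of all genes. The medians were -0.06 for COP9 with 5 of 9 negative, -0.09 for eIF3 with 10 of 13 negative and -0.03 for CCT with 5 of 8 negative, beside -0.15 for the 20S core. The differences between the complexes were not tested.

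Markers of kidney cell types also moved in these comparisons. For diabetes on vehicle 88.9% of the proximal tubule markers and 62.5% of those of other segments passed, beside 40.3% of all genes. Of the 9 proximal tubule markers, diabetes on vehicle raised 2 and lowered 6, and their summed level was 11155 to 15131 CPM in diabetic PMX-53, 9387 to 12057 in diabetic vehicle, 14226 to 17523 in non-diabetic PMX-53 and 13607 to 16088 in non-diabetic vehicle libraries. None of the 9 was at 0 in all libraries. Of 8 markers of other nephron segments, 4 rose and 1 fell, at a summed 2692 to 3598 CPM in diabetic PMX-53, 2813 to 4008 in diabetic vehicle, 2980 to 3563 in non-diabetic PMX-53 and 2971 to 3763 in non-diabetic vehicle libraries. The part of cell makeup in the proteasome values was not tested.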

How the data were processed

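Ribosomal RNA was removed from 200 ng of RNA for each of 24 renal cortex samples, in 4 groups of 6, and directional libraries were sequenced, per the labels' protocols. The submitters' processing notes name bcl2fastq 2.20.0.422, STAR and GRCm38. No source used here gives the annotation, the counter or whether it used strand. The table the authors deposited holds raw whole-number counts per gene, as its values show.

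Counts were fitted in R 4.3.3 with edgeR 4.0.16 (filterByExpr, TMM scaling, robust quasi-likelihood F test, a coefficient per group, no covariate), with Benjamini-Hochberg adjustment over 15808 genes and a threshold of 0.05. The standard error is the size of the log2 fold change over the square root of F. CPM were scaled by TMM, with SD over libraries. Ratios had 0.5 added to each count and were tested by exact permutation in scipy 1.17.1. The models were tested on simulated data. Alternatives used DESeq2 1.42.0, limma 3.58.1, other scalings and filters, and fits without each library. Positions come from GENCODE M21 and promoters from RefSeq (GRCm38.p6), which gave entries for 42 members.

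Members, roles and gene lists were chosen with earlier results of these data known. The named genes were the 6 catalytic subunits, the activators and inhibitor, and up to 3 members per role and comparison with the smallest p. Other named genes were up to 3 per list with the smallest p. Tap1, Nnt and the genes overlapping members were named after their values were seen, as were members beyond 3 in a role. Promoter motifs, the 5 promoters printed, exon overlaps, correlation partners and coding length were also chosen after the data were seen. Within groups, 60 pairs of libraries differed beyond counting noise (chi-square per degree of freedom at least 5.43). Separate animals are not numbered in the labels beyond 24 sample titles, so tests rest on the spread over these libraries, which may be partly technical.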

Additional observations from a re-analysis of the deposited data

Results flagged for a closer look

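In 7 of 192 groups of 6 libraries, 1 library stood far from the other 5 of its group. Chance flags about 1 group in 20, or 5% of groups. Psma1 was at 35.1 CPM in diabetic vehicle replicate 6, against 41.6 to 45.4 in the others, and at 49.3 CPM in non-diabetic PMX-53 replicate 3, against 41.6 to 43.9. Psma4 was at 48.3 CPM in diabetic vehicle replicate 6, against 57.9 to 62.6. Psma3 was at 32.4 CPM in diabetic PMX-53 replicate 1, against 35.9 to 37.3. Psme2 was at 22.3 CPM in diabetic PMX-53 replicate 6, against 18.98 to 20.1. Psmd12 was at 31.7 CPM in non-diabetic PMX-53 replicate 6, against 36.0 to 37.6. Psmc3 was at 65.3 CPM in non-diabetic vehicle replicate 5, against 73.6 to 78.3.

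The interaction in edgeR, between the PMX-53 differences in diabetic and non-diabetic mice, passed for 5 members. It uses the diabetic vehicle libraries, so any trait of that group cannot be told apart from a differing effect of PMX-53. The 5 were 10.4% of the 48 members tested, beside 9.42% of all genes, and with library totals 0 passed. The log2 differences between the effects were -0.50 for Psmd9 (adjusted p = 0.0187), -0.41 for Psme1 (adjusted p = 0.00669), -0.35 for Psmd8 (adjusted p = 0.00133), -0.29 for Psmb3 (adjusted p = 0.0247) and -0.24 for Psma7 (adjusted p = 0.0239).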

How the results depend on the processing

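Of 32 gene results past the threshold, 202 of 251 values under the alternatives other than leaving out a library stayed past it, 49 did not and 0 changed sign. With 1 library left out, 708 of 768 stayed, 60 did not and 0 changed sign. The cause was not tested. With library totals only, 3 members rose and 5 fell for diabetes on vehicle, 6 rose and 3 fell for PMX-53 in diabetic mice, 1 fell for diabetes under PMX-53, and 0 interactions were lower. With no filter on low counts, which tests more genes, 0 rose and 7 fell for PMX-53 in diabetic mice, 0 rose and 1 fell for diabetes under PMX-53, and 3 interactions were lower. With only the groups compared, which leaves fewer libraries to estimate the spread, 7 fell for PMX-53 in diabetic mice. In that comparison 2 members rose with DESeq2, 3 with limma voom and 2 with mitochondrially encoded and ribosomal RNA genes removed.

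Same-numbered libraries did not pair: the correlation of their deviations was over 0.1 in 10 of 36 pairs and ran from -0.46 to 0.37. With the replicate block, 2 members rose for PMX-53 in diabetic mice and 0 for diabetes under PMX-53.

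With each library left out in turn, 5 to 10 members rose and 2 to 4 fell for diabetes on vehicle, 0 to 4 rose and 9 to 14 fell for PMX-53 in diabetic mice, 0 to 1 rose and 2 to 3 fell for diabetes under PMX-53, and 5 to 7 interactions were lower. The rise count for PMX-53 in diabetic mice was 0 without diabetic vehicle replicate 2, 4 without replicate 3, 3 without replicate 4, 3 without diabetic PMX-53 replicate 6 and 2 without non-diabetic vehicle replicate 5. The 1 rise for diabetes under PMX-53 (Psmg4) was lost (count 0) without diabetic PMX-53 replicate 1, 3, 4 or 6 or non-diabetic PMX-53 replicate 4, 5 or 6.

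Values not past the threshold changed sign as follows. With library totals Psmb7 (-0.0926) and Psmf1 (-0.0824) did for diabetes on vehicle, and Psmb5 (0.0086), Psmb10 (0.0673) and Psme4 (0.0655) for PMX-53 in diabetic mice. With limma voom Psmb9 did for diabetes on vehicle (0.0163) and the interaction (-0.18), and Psmb8 for PMX-53 in diabetic mice (-0.0104). Without the filter the interaction of Psmb9 was -0.0028. Without 1 library, for diabetes on vehicle, Psmb7 ran from -0.0088 to 0.0182, Psmb9 from -0.20 to 0.0434, Psme3 from -0.0652 to 0.0048, Psme4 from -0.0622 to 0.00022 and Psmf1 from -0.0040 to 0.0291. For PMX-53 in diabetic mice, Psmb8 ran from -0.0471 to 0.11, Psmb9 from -0.0022 to 0.23 and Psmb10 from -0.0978 to 0.0386. For PMX-53 in non-diabetic mice Psme1 ran from -0.0040 to 0.0400 and Psme3 from -0.0156 to 0.0353, for diabetes under PMX-53 Psme4 ran from -0.0160 to 0.0442, and the interaction of Psmb9 ran from -0.14 to 0.11. The log2 ratio of Psmb9 over Psmb6 for diabetes under PMX-53 ran from -0.17 to 0.0257. The immunoproteasome genes averaged 3.03 to 5.41 CPM, and the part of depth in their errors was not tested. For genes that are not members, counts of calls and medians over all genes were recomputed, but single values were not.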
